A study of Mus musculus with 11 samples.

Results

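Heat shock proteins and their partners were followed in 3 kinds of sorted mouse cells, taking every gene entry whose symbol belongs to the Hspa, Hspb, Hspd, Hspe, Hsph, Hsp90, Dnaja, Dnajb, Dnajc or Bag families. The symbol rule found 93 of 57186 entries, of which 77 are genes and 16 are pseudogenes or related sequences. The rule reads symbols and no measured value.

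The cells were DN3 thymocytes (3 libraries), ZsGreen-positive lung group 2 innate lymphoid cells (ILC2, 3 libraries) and ZsGreen-negative lung ILC2 (5 libraries). All came from untreated 14-day-old Cd3giCreRosa26stopZsGreen mice, so the reporter alleles are shared by every group. DN3 cells are T cell precursors of the thymus at the stage of T cell receptor beta rearrangement, and ILC2 are tissue lymphocytes that secrete type 2 cytokines. In these mice Cre is driven by Cd3g and ZsGreen follows the removal of a stop sequence, so the colour marks a cell that expressed Cd3g or descends from such a cell, not one that expresses it when sorted. The labels do not say whether libraries of a group came from separate animals, so the spread behind each p-value is that between libraries and may be technical. The lung libraries fall in a 2024 batch (ZsGreen-positive libraries 1 and 2, ZsGreen-negative libraries 1 to 4) and a 2025 batch (ZsGreen-positive library 3, ZsGreen-negative library 5), whereas DN3 had a 2024 batch of their own. For DN3 set against lung, tissue and batch cannot be told apart.

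Chaperones keep proteins folded. HSP70 proteins bind exposed hydrophobic stretches of a client in a cycle driven by ATP; J-domain proteins of the DNAJ families bring clients to HSP70 and start ATP hydrolysis, and HSP110 and BAG proteins exchange the nucleotide so that the client is let go. HSP90 finishes the folding of kinases and steroid receptors, HSP60 with its lid HSP10 encloses clients in mitochondria, and small heat shock proteins hold unfolded clients until HSP70 takes over. Some of these genes are induced by heat shock factor 1 (HSF1), others in the endoplasmic reticulum (ER) by the unfolded protein response, and others are made at all times.

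Total counts lay between 5951494 and 7745062 in DN3, between 5762491 and 17627469 in ZsGreen-positive and between 4495260 and 14424313 in ZsGreen-negative libraries. Levels are given as CPM, the share of a library's counts on a common scale, after scaling by the trimmed mean of M values (TMM), and a single count stood for 0.0595 to 0.243 CPM. The labels fitted the defining markers: the summed level of 7 DN3 markers was 5189 to 5379 CPM in DN3, 780.1 to 1050 CPM in ZsGreen-positive and 940.4 to 1088 CPM in ZsGreen-negative libraries. Not all 7 set the cells apart equally, as their log2 fold changes of DN3 over all lung ILC2 ran from 0.29 to 14.7. The sum of 8 ILC2 markers was 215.2 to 218.1 CPM in DN3, 8844 to 10942 CPM in ZsGreen-positive and 9567 to 12130 CPM in ZsGreen-negative libraries. Of the 93 entries, 67 passed the filter on low counts in the fit of all 11 libraries and 65 in the fit of the lung libraries. Among the 26 not tested with DN3, 15 are pseudogenes or related sequences and 11 are genes, namely the small heat shock genes Hspb2, Hspb3, Hspb7, Hspb8 and Hspb9, and Dnajb3, Dnajb7, Dnajb8, Dnajc5b, Dnajc5g and Dnajc22. None of the 26 exceeded 1.86 CPM in any library, and 9 had no count at all. Hspa1l and Dnajc6 passed the filter through DN3 alone, and Hspa1a, Hspa1b, Hspa12a, Hspb1 and Dnaja4 through the lung libraries alone, so these 7 had to differ. Their differences between DN3 and lung are given as a description, with no p, and the counts of calls below include them.

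The summed level of all members was 11062 to 11497 CPM in DN3, 8330 to 9078 CPM in ZsGreen-positive and 8818 to 10326 CPM in ZsGreen-negative libraries. DN3 libraries thus lay above every lung library, and the lung groups overlapped. In bulk libraries, fewer cells that express a gene and less RNA per cell cannot be told apart. Per kilobase of the longest coding transcript, the constitutive cytosolic HSP90 gene Hsp90ab1 was the most abundant member in DN3 at 1230 CPM per kb, ahead of Hspa8, the constitutive cytosolic HSP70, at 924 CPM per kb. The order was the opposite in the lung, with Hspa8 at 842 CPM per kb in ZsGreen-positive and 913 CPM per kb in ZsGreen-negative ILC2, and Hsp90ab1 at 521 and 607 CPM per kb in the same order of groups.

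The first comparison set DN3 against all lung ILC2. With the quasi-likelihood test of edgeR at a Benjamini-Hochberg adjusted p under 0.05, 23 members were higher in DN3 and 30 lower, out of 67 tested. Over all 15132 genes tested, 78.8% were called, 36.7% higher and 42.1% lower, so the members' share was close to that of the background. The median log2 fold change was -0.15 over the members and -0.09 over all genes. In 22 members every DN3 library lay above every lung library, and in 24 every DN3 library lay below, against 32.6% and 36.7% of all genes (69.3% in either direction). Most families held members called in each direction, as the plot of fold changes by family shows.

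**Figure D1:**
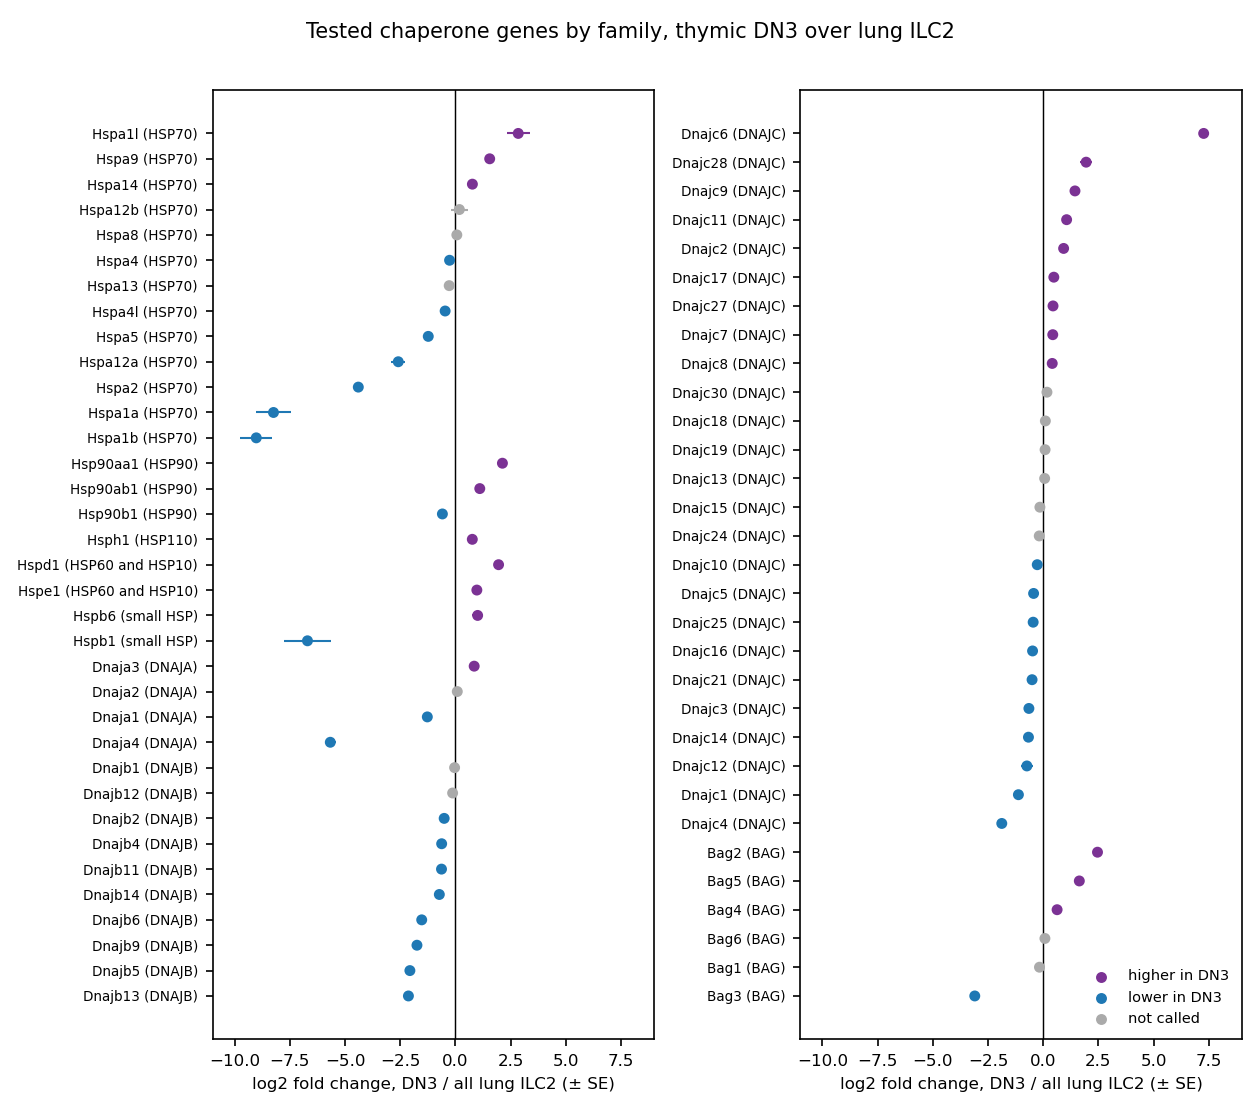
Log2 fold change of DN3 over all lung ILC2 for the 66 tested members that are genes, with standard errors as horizontal bars, grouped by family. Purple points were called higher in DN3, blue points lower and grey points were not called. The tested DNAJB genes lie at or below 0, and the fold changes span -9.02 (Hspa1b) to 7.26 (Dnajc6). The fitted value of Hspb1, at 0 counts in DN3, depends on the prior count and is no bound.

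The stress-inducible HSP70 genes were nearly silent in DN3. Hspa1a (ENSMUSG00000091971) had 0.141, 0.107 and 0 CPM in DN3 libraries, against 39.0, 46.0 and 18.7 CPM in ZsGreen-positive and 20.6, 23.4, 36.2, 36.7 and 17.3 CPM in ZsGreen-negative libraries. Every lung library lay far above every DN3 library. These levels rest on 2 counts in DN3 and 1691 in the lung, a level 329-fold lower in DN3 with a 95% counting interval of 90.9 to 2719 (exact, counting error only). Hspa1b (ENSMUSG00000090877), its near copy, had 0.562, 0 and 0 CPM in DN3, against 128, 120 and 59.6 CPM in ZsGreen-positive and 69.2, 75.0, 121, 100.3 and 67.7 CPM in ZsGreen-negative libraries. That is 4 counts against 5384, a level 524-fold lower in DN3 (interval 204 to 1923). The genes share 66.3% (Hspa1a) and 62.3% (Hspa1b) of their transcripts' 50-base stretches with other genes, chiefly each other and Hspa1l, so how reads were divided between them is uncertain. Hspa1l, the third gene of that cluster, was counted at 2.11, 2.57 and 2.10 CPM in DN3, against 0 to 0.578 CPM in ZsGreen-positive and 0 to 0.728 CPM in ZsGreen-negative libraries.

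The region before the start of Hspa1b is shown because heat shock factors bind inverted repeats of a short unit, the heat shock element, in such promoters. It lies at chr17:34959239-34959488 (GRCm38.p6, minus strand) and is given 5′ to 3′ from RefSeq, with a match to the paired unit GAANNTTC in capitals, 104 bases before the start.
Hspa1b: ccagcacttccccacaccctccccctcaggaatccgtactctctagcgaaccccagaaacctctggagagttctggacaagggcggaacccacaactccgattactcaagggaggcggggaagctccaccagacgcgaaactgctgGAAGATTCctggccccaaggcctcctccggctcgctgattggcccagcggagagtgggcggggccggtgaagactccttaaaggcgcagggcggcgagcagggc
The Hspa1a window is identical at 296 of 300 bases, 98.7%.

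Other genes with very low DN3 levels were Dnaja4, Bag3 and Hspb1. Dnaja4, a J-domain partner of HSP70, had 0.321 to 0.422 CPM in DN3, against 14.5 to 21.2 CPM over all lung libraries, a level 54.6-fold lower in DN3 (95% counting interval 28.7 to 120). Bag3 (ENSMUSG00000030847), which joins HSP70 to small heat shock proteins and selective autophagy, had 1.83, 2.04 and 1.86 CPM in DN3, below all lung libraries at 10.1 to 30.1 CPM. Its log2 fold change was -3.10 ± 0.23 (SE, edgeR adjusted p 3.5e-11). Hspb1, the small heat shock protein HSP25, had 0 counts in DN3, which allows up to 0.120 CPM over the group, and 136 counts in the lung. Its level was at least 15.2-fold lower in DN3, taking 3 counts over the DN3 group as the floor. Transcripts of Hspb1 and Dnaja4 share 50.1% and 42.7% of their 50-base stretches with other gene models, so the division of their reads is uncertain too.

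Inducible genes were called in either direction. Of 14 listed heat-inducible chaperones, all tested, 5 were higher in DN3 and 7 lower, near the 36.7% and 42.1% of all genes. The list median of the log2 fold change was -0.25, also with Hspb1 at its bound. This list also holds Hspa8 and Hsp90ab1, described above as constitutive. Hsp90ab1 was among the 5 higher, and Hspa8 was not called. Hsp90aa1 (ENSMUSG00000021270), the inducible cytosolic HSP90, had 903, 865 and 834 CPM in DN3, against 207, 197 and 173 CPM in ZsGreen-positive and 221, 225, 187, 208 and 174 CPM in ZsGreen-negative libraries. All DN3 libraries lay above all lung libraries, by 2.13 ± 0.08 on the log2 scale (SE, edgeR adjusted p 1.9e-16). Hsp90ab1 had 3035 to 3147 CPM in DN3, 1282 to 1330 CPM in ZsGreen-positive and 1429 to 1698 CPM in ZsGreen-negative libraries, a log2 fold change of 1.10 ± 0.08 (SE, edgeR adjusted p 1.1e-11). Hsph1, the HSP110 exchange factor, was higher in DN3 with 115 ± 2.62 CPM (SD, n = 3), against 66.1 to 72.4 CPM in ZsGreen-positive and 60.5 to 68.5 CPM in ZsGreen-negative libraries (log2 fold change 0.76 ± 0.07, SE, edgeR adjusted p 1.4e-09).

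Hspa8 and Dnajb1, a central cytosolic HSP70 and its J-domain partner, were not called. Hspa8 had 2318, 2183 and 2135 CPM in DN3, 2192, 2065 and 1787 CPM in ZsGreen-positive and 2246, 2317, 2135, 2413 and 1822 CPM in ZsGreen-negative libraries, with all groups overlapping. Its log2 fold change was 0.06 ± 0.09 (SE, edgeR adjusted p 0.55). Dnajb1, the main inducible J-domain partner of cytosolic HSP70, had 73.7 to 80.6 CPM in DN3, 70.2 to 96.8 CPM in ZsGreen-positive and 60.7 to 87.4 CPM in ZsGreen-negative libraries (log2 fold change -0.04 ± 0.10, SE, edgeR adjusted p 0.73). A p above the threshold does not show that the levels were equal. Dnaja1, another cytosolic J-domain protein, was lower in DN3 at 221 to 231 CPM, against 386 to 476 CPM in ZsGreen-positive and 586 to 682 CPM in ZsGreen-negative libraries (log2 fold change -1.27 ± 0.09, SE, edgeR adjusted p 8.4e-12).

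**Figure D2:**
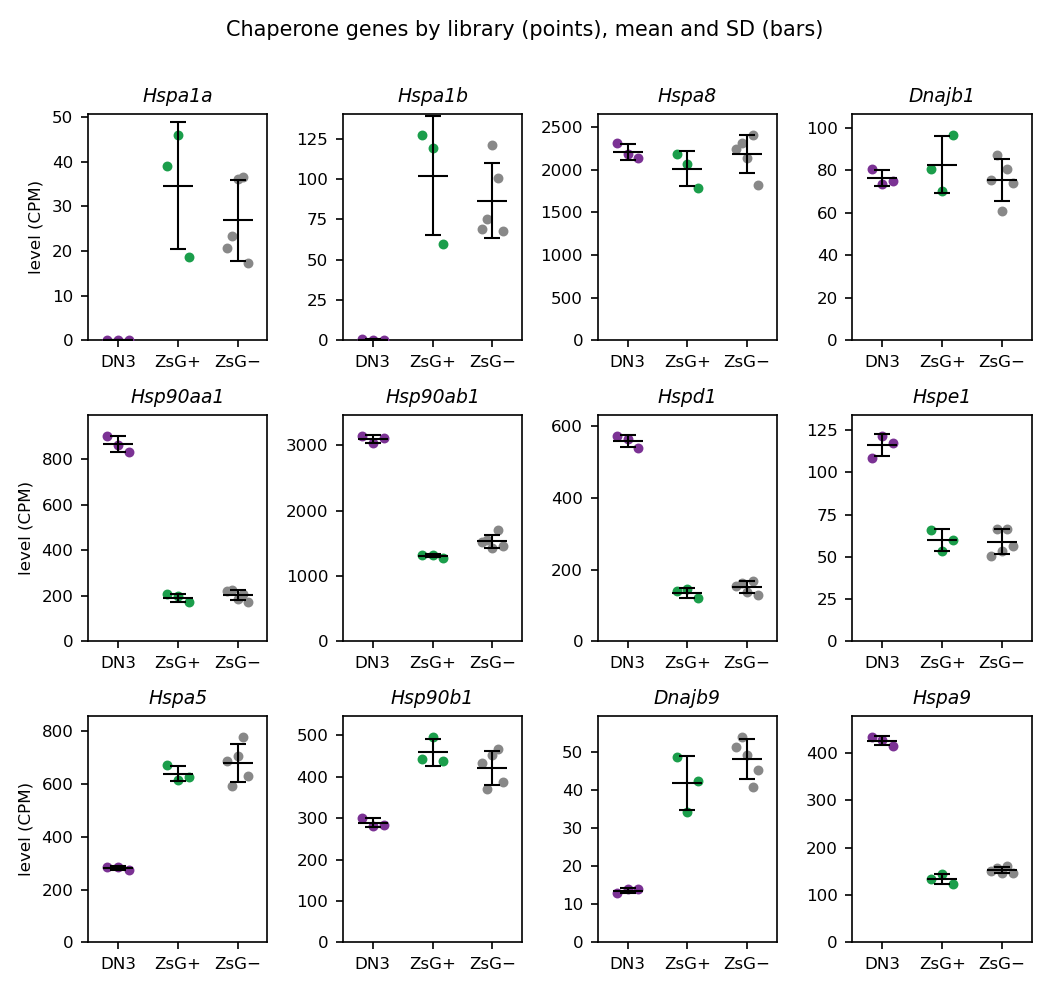
Levels (CPM after TMM scaling, linear axes from 0) of 12 chaperone genes in each library, with the mean and SD as bars, for DN3 (3 libraries), ZsGreen-positive ILC2 (ZsG+, 3) and ZsGreen-negative ILC2 (ZsG−, 5). Hspa1a and Hspa1b lie near 0 in DN3, Hspa8 and Dnajb1 overlap in all groups, the HSP90 and mitochondrial genes are higher in DN3, and the ER genes Hspa5, Hsp90b1 and Dnajb9 are lower.

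Other gene groups differed between the same libraries. Immediate early genes, which dissociation of tissue is known to induce together with Hspa1a and Hspa1b, had a summed level of 272 to 325 CPM in DN3, against 17652 to 20712 CPM in ZsGreen-positive and 20251 to 26530 CPM in ZsGreen-negative libraries, and 15 of 15 were lower in DN3. Among all genes tested, 42.1% were called lower and 36.7% higher. At least 1 of the 15, with no count in DN3, passed the filter through the lung libraries alone and had to be lower. Of 15 cell cycle genes, 15 were higher in DN3, beside the 36.7% of all genes. Their sums were 5288 to 5462 CPM in DN3, 1038 to 1213 CPM in ZsGreen-positive and 948.5 to 1348 CPM in ZsGreen-negative libraries. The sum of 15 lung structural cell markers was 134 to 157 CPM in DN3, 1037 to 2627 CPM in ZsGreen-positive and 412.6 to 1162 CPM in ZsGreen-negative libraries. Of 14 tested, 12 were lower in DN3 and 2 higher, and 4 of the 15 had no count in any DN3 library. The part of these groups in the chaperone levels was not tested.

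Of 8 mitochondrial chaperones listed, 5 were higher in DN3 and none lower, so that 62.5% were called against 78.8% of all genes (36.7% higher, 42.1% lower). The median log2 fold change was 0.91, against -0.09 over all genes tested. Hspd1 (ENSMUSG00000025980), the HSP60 subunit, had 574, 564 and 539 CPM in DN3, against 141, 145 and 120 CPM in ZsGreen-positive and 154, 163, 137, 169 and 131 CPM in ZsGreen-negative libraries. Hspe1 (ENSMUSG00000073676), its lid HSP10, had 109, 122 and 117 CPM in DN3, against 66.2, 53.4 and 60.2 CPM in ZsGreen-positive and 50.7, 66.6, 53.7, 66.5 and 56.7 CPM in ZsGreen-negative libraries. Every DN3 library lay above every lung library for each gene, with log2 fold changes of 1.95 ± 0.08 for Hspd1 and 0.97 ± 0.09 for Hspe1 (SE, edgeR adjusted p 7.3e-16 and 1.2e-09). Hspa9, the mitochondrial HSP70, was at 416 to 434 CPM in DN3, 124 to 144 CPM in ZsGreen-positive and 146 to 162 CPM in ZsGreen-negative libraries, a log2 fold change of 1.55 ± 0.07 (SE, edgeR adjusted p 1.9e-15). Transcripts of Hspd1, Hspe1, Hsp90aa1 and Hspa8 share 42.1%, 22.8%, 47.5% and 39.4% of their 50-base stretches with other gene models. The division of their reads by the authors' counting is uncertain.

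Hspd1 and Hspe1 are read in opposite directions from a common promoter, and their windows share 285 of 300 bases. The Hspe1 strand is printed because it holds a 3-unit heat shock element, GAANNTTCNNGAA on either strand, within the capitals. It lies at chr1:55087898-55088147 (GRCm38.p6, plus strand, RefSeq), and the capitals mark 3 overlapping paired units between 89 and 72 bases before the start.
Hspe1: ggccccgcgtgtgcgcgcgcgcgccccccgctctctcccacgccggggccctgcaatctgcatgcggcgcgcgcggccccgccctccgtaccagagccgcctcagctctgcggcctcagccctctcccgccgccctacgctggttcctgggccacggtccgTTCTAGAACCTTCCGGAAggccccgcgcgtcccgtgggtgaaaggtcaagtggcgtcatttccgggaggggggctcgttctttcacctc
The 3-unit element was found in 4 members, Dnajb6, Hspd1, Hspe1 and Hsph1, and in 0.603% of 32851 RefSeq windows, which run from 250 bases before to 50 after the start. Of these members, 3 were higher in DN3 and Dnajb6 was lower. The paired unit (GAANNTTC or TTCNNGAA, which the longer form contains) was found in 17 members and in 15.1% of windows. Among the 14 of these 17 that were tested, 5 were higher in DN3 and 9 lower. Of all genes tested, 36.7% were called higher and 42.1% lower. The 9 include Hspa1a, Hspa1b, Hspb1 and Dnaja4, which passed the filter through the lung libraries alone and had to be lower. The 4 genes with the longer form thus went in either direction, and Hspd1 and Hspe1 among them share a promoter. Of the tested genes with the paired unit only, Dnajc27 and Hspb6 were higher and the rest lower. The windows held 62 of the 93 members. A match describes these letters and is not evidence of binding.

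Of 8 ER chaperones listed, 7 were lower in DN3 and none higher, where 42.1% of all genes were lower and 36.7% higher. The median log2 fold change was -0.64, against -0.09 over all genes tested. Hspa5 (ENSMUSG00000026864), the ER HSP70 known as BiP, had 285, 287 and 274 CPM in DN3, against 671, 617 and 627 CPM in ZsGreen-positive and 686, 593, 708, 778 and 629 CPM in ZsGreen-negative libraries, with no overlap between DN3 and lung. Its log2 fold change was -1.23 ± 0.09 (SE, edgeR adjusted p 2.5e-11). Hsp90b1, the ER HSP90 known as GRP94, had 280 to 301 CPM in DN3, 439 to 496 CPM in ZsGreen-positive and 370 to 466 CPM in ZsGreen-negative libraries, a log2 fold change of -0.59 ± 0.08 (SE, edgeR adjusted p 1.5e-06). Dnajb9, a J-domain partner of BiP, had 12.9 to 14.0 CPM in DN3, 34.4 to 48.7 CPM in ZsGreen-positive and 40.8 to 54.1 CPM in ZsGreen-negative libraries, a log2 fold change of -1.74 ± 0.13 (SE, edgeR adjusted p 2.0e-11). Dnajc3, Dnajc1, Dnajb11 and Dnajc10, further J-domain proteins of the ER, had log2 fold changes of -0.65, -1.13, -0.63 and -0.27. Hspa13 was the member of this list that was not called, at -0.28 (edgeR adjusted p 0.063).

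Of these ER genes, 3 carry the ER stress response element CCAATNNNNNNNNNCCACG before the start, against 0.119% of all RefSeq windows. Where 42.1% of all genes were lower in DN3, all 3 of these were. They are printed 5′ to 3′ from RefSeq (GRCm38.p6), with matches on either strand in capitals. Hspa5 lies at chr2:34771840-34772089 on the plus strand, Hsp90b1 at chr10:86705503-86705686 on the minus strand, with 2 matches, and Dnajc3 at chr14:118937797-118937875 on the plus strand.
Hspa5: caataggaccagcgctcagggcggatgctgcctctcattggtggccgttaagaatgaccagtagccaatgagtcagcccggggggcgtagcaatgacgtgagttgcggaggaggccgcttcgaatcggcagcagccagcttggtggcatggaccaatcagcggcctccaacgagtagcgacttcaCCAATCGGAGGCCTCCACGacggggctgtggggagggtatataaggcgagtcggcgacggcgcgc
Hsp90b1: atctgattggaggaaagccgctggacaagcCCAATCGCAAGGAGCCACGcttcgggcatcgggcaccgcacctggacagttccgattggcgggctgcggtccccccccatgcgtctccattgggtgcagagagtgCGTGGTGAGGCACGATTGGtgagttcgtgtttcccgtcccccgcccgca
Dnajc3: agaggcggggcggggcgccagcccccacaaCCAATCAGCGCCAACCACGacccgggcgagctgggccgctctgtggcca
The related element ATTGGNCCACG was found in 1 member, Dnajb11, and in 0.0365% of windows.

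Further members with large differences belong to none of these groups. Dnajc6, which encodes auxilin, the J-domain protein that strips clathrin from vesicles, had 81.6, 83.3 and 83.2 CPM in DN3, against 0.184 to 0.416 CPM in ZsGreen-positive and 0.165 to 1.21 CPM in ZsGreen-negative libraries (log2 fold change 7.26, as a description, since it passed the filter through DN3 alone). Dnajc9, a histone co-chaperone, was at 141 to 148 CPM in DN3, 48.5 to 53.2 CPM in ZsGreen-positive and 49.0 to 62.7 CPM in ZsGreen-negative libraries. Its log2 fold change was 1.44 ± 0.08 (SE, edgeR adjusted p 1.0e-13). Dnajc28 was also higher in DN3, at a log2 fold change of 1.94. Of 25 tested DNAJC genes 9 were higher and 10 lower, whereas of 10 tested DNAJB genes none was higher and 8 were lower, and of 4 DNAJA genes 1 was higher and 2 lower. Among all genes 36.7% were called higher and 42.1% lower, and the DNAJC counts were near these shares. The lower DNAJB genes included Dnajb13, known from sperm flagella, and Dnajb5, at log2 fold changes of -2.13 and -2.06. Transcripts of Dnajb13 share 9.22% of their 50-base stretches with Ucp2, so the division of its reads is uncertain.

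Among the BAG genes, which exchange nucleotide on HSP70, 3 of 6 were higher in DN3 and 1 lower. Bag2, an inhibitor of the ubiquitin ligase CHIP, had 16.7, 16.8 and 20.8 CPM in DN3, against 3.27 to 4.19 CPM in ZsGreen-positive and 1.69 to 5.18 CPM in ZsGreen-negative libraries. Bag5 had 31.6 to 37.4 CPM in DN3, 10.6 to 12.4 CPM in ZsGreen-positive and 10.4 to 13.2 CPM in ZsGreen-negative libraries. The log2 fold changes were 2.46 ± 0.21 for Bag2 and 1.63 ± 0.11 for Bag5 (SE, edgeR adjusted p 4.7e-10 and 1.1e-11), opposite in sign to Bag3. In the HSP70 family, 3 of 13 genes were higher and 7 lower. Of all genes, 36.7% were called higher and 42.1% lower. Hspa2, an HSP70 best known from the testis, had 2.95 to 4.71 CPM in DN3, 61.1 to 89.1 CPM in ZsGreen-positive and 70.7 to 105 CPM in ZsGreen-negative libraries (log2 fold change -4.40 ± 0.21, SE, edgeR adjusted p 1.3e-12). Hspa12a, an atypical HSP70 that passed the filter through the lung libraries alone, had 0.536 to 1.55 CPM in DN3, 2.31 to 3.68 CPM in ZsGreen-positive and 7.14 to 8.98 CPM in ZsGreen-negative libraries.

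Genes that work with the chaperones but are outside the families were read from lists of partners. All 8 subunits of the cytosolic chaperonin TRiC, which folds actin and tubulin, were higher in DN3, with a median log2 fold change of 0.86, where 36.7% of all genes were higher, 42.1% were lower and the median was -0.09. Cct6a had 347 to 354 CPM in DN3, 95.7 to 117 CPM in ZsGreen-positive and 103 to 141 CPM in ZsGreen-negative libraries. Tcp1 and Cct3 had log2 fold changes of 1.34 and 1.22. Prefoldin, which hands clients to TRiC, was divided, with 3 of 6 subunits higher (Pfdn6 at 1.01 and Pfdn2 at 0.33 among them) and Pfdn5 lower at -1.53. Of 8 other mitochondrial folding factors, 7 were higher and none lower, among them Trap1, the mitochondrial HSP90, at 0.98, the protease Lonp1 at 0.88 and Grpel1, an exchange factor for Hspa9, at 0.86.

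HSP70 and HSP90 co-chaperones were higher in 11 and lower in 5 of 17 cases, beside 36.7% higher and 42.1% lower among all genes. Fkbp5, an HSP90 partner of steroid receptors, had 962, 1015 and 961 CPM in DN3, against 153 to 162 CPM in ZsGreen-positive and 111 to 172 CPM in ZsGreen-negative libraries, a log2 fold change of 2.71 ± 0.10 (SE, edgeR adjusted p 7.4e-15). Ppid, another HSP90 partner, had a log2 fold change of 1.84, and Unc45a, which folds myosin with HSP90, one of -2.25. Of 5 tested genes for heat shock factors and their regulators, 1 was higher, the regulator Hsf2bp, and 4 were lower. Hsf1 had 62.9 to 64.6 CPM in DN3, 141 to 169 CPM in ZsGreen-positive and 151 to 230 CPM in ZsGreen-negative libraries (log2 fold change -1.46 ± 0.11, SE, edgeR adjusted p 3.3e-11), and Hsf2 had a log2 fold change of -0.88. Hsf2bp, which binds HSF2, was higher at 1.90 but stayed at 1.55 to 2.56 CPM in DN3. It was not tested in the lung fit and passed the filter through DN3 alone, so it had to be higher and its call is a description.

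Of 13 other ER folding factors, 8 were lower in DN3 and 2 higher, with 42.1% of all genes lower and 36.7% higher. Ero1a, which oxidises protein disulfide isomerases, had 35.9 to 41.6 CPM in DN3, 744 to 1169 CPM in ZsGreen-positive and 768 to 1249 CPM in ZsGreen-negative libraries (log2 fold change -4.72 ± 0.19, SE, edgeR adjusted p 4.1e-13). Its paralog Ero1b and the disulfide isomerase Pdia3 had log2 fold changes of -1.36 and -1.16. Of 7 tested regulators of the unfolded protein response, 4 were lower and 2 higher. Atf6, the sensor that activates ER chaperone genes, had a log2 fold change of -1.82, and Xbp1, the other main activator, one of 0.70. Ppp1r15a, which restores translation after stress and is itself an early response gene, had 15.7, 6.64 and 8.38 CPM in DN3, against 1259 to 1691 CPM in ZsGreen-positive and 1483 to 2111 CPM in ZsGreen-negative libraries.

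**Figure D3:**
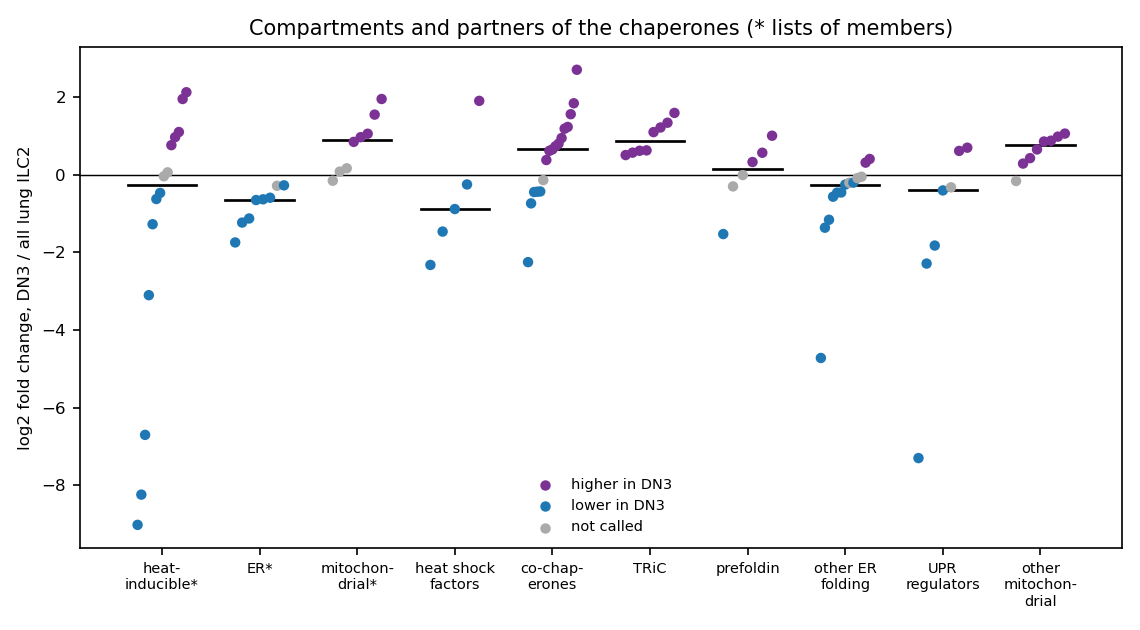
Log2 fold change of DN3 over all lung ILC2 for each tested gene (points) of 10 lists, with the list median as a black line. The first 3 lists (starred) hold members, and the other 7 hold partner genes. Purple points were called higher in DN3, blue points lower and grey points were not called; TRiC and both mitochondrial lists lie above 0 in their medians, and both ER lists below.

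DN3 were also set against each lung group alone, in comparisons that share the DN3 libraries. Against ZsGreen-positive ILC2, 23 members were higher in DN3 and 26 lower, where 75.1% of all genes were called, 34.8% higher and 40.3% lower. With ZsGreen-negative ILC2 as the other side, 23 members were higher in DN3 and 31 lower, where 76.7% of all genes were called, 35.5% higher and 41.2% lower. Side by side, the log2 fold change against ZsGreen-positive and against ZsGreen-negative ILC2 was 2.18 and 2.10 for Hsp90aa1, 2.05 and 1.89 for Hspd1, -1.18 and -1.26 for Hspa5, and -3.71 and -2.74 for Bag3. Dnaja1 was at -0.98 and -1.45, and Hspa4 at -0.03 and -0.41.

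ZsGreen-positive ILC2 were then set against ZsGreen-negative ILC2 of the lung, with batch in the fit. Of 65 members tested, 2 were higher in ZsGreen-positive ILC2 and 3 lower, and 13 had an unadjusted p under 0.05, against 2317 of all 13771 genes. The 2 higher include Hspb1, which passed the filter on low counts here through the ZsGreen-positive libraries alone. Over the 13771 genes tested, 4.52% were called, 2.35% higher and 2.18% lower, and the median log2 fold change was -0.01 over the members and -0.00058 over all genes. The groups did not overlap in 2 members that were higher and 6 that were lower, against 5.17% and 5.01% of all genes (10.2% in either direction). The 3 lower ones without a call were Dnajc12 (edgeR adjusted p 0.056), Hsp90ab1 (0.24) and Hspa9 (0.25).

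Bag3 had 18.5, 26.7 and 30.1 CPM in ZsGreen-positive, against 10.1, 16.8, 12.6, 11.1 and 13.5 CPM in ZsGreen-negative libraries. The lowest ZsGreen-positive library lay above the highest ZsGreen-negative one, and the log2 fold change was 0.94 ± 0.17 (SE, edgeR adjusted p 0.0033). Hspb1 (ENSMUSG00000004951) had 2.17, 3.50 and 3.81 CPM in ZsGreen-positive, against 0.860, 0.357, 1.94, 0.495 and 1.47 CPM in ZsGreen-negative libraries (log2 fold change 1.57 ± 0.44, SE, edgeR adjusted p 0.047). Since Hspb1 entered this fit through the ZsGreen-positive libraries alone, its call is a description and its p gives no support. The gap between the groups was narrow, and leaving out any single lung library other than ZsGreen-negative library 3 raised the adjusted p of Hspb1 to between 0.077 and 0.23.

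Dnaja1 (ENSMUSG00000028410) had 471, 476 and 386 CPM in ZsGreen-positive, against 620, 589, 617, 682 and 586 CPM in ZsGreen-negative libraries, and the groups did not overlap. Its log2 fold change was -0.46 ± 0.09 (SE, edgeR adjusted p 0.0040). Transcripts of Dnaja1 share 20.55% of their 50-base stretches with other gene models, so the division of its reads is uncertain. The 68 bases around its paired heat shock unit, at chr4:40722314-40722381 (GRCm38.p6, plus strand, RefSeq), are shown because it was the lower heat-inducible member, with the unit in capitals 124 bases before the start.
Dnaja1: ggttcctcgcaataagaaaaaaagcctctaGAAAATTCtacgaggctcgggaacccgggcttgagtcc
Hspa4, an exchange factor for HSP70, had 365, 384 and 317 CPM in ZsGreen-positive, against 461, 463, 465, 493 and 419 CPM in ZsGreen-negative libraries (log2 fold change -0.34 ± 0.08, SE, edgeR adjusted p 0.017). The call was lost without ZsGreen-positive library 1 (adjusted p 0.091), 2 (0.0501) or 3 (0.10), or ZsGreen-negative library 5 (0.11). Hspa12a had 2.31, 3.68 and 2.73 CPM in ZsGreen-positive, against 7.74, 7.14, 8.98, 8.09 and 8.16 CPM in ZsGreen-negative libraries, a wide gap with a log2 fold change of -1.48 ± 0.25 (SE, edgeR adjusted p 0.0016).

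**Figure D4:**
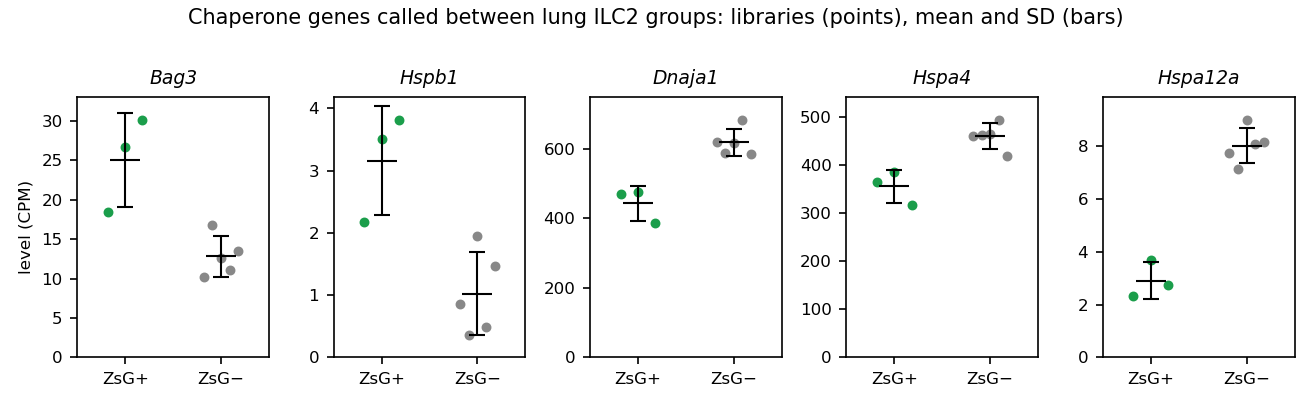
Levels (CPM after TMM scaling, linear axes from 0) of the 5 members called between ZsGreen-positive (ZsG+, 3 libraries) and ZsGreen-negative (ZsG−, 5 libraries) lung ILC2, with the mean and SD as bars. Bag3 and Hspb1 are higher in ZsGreen-positive ILC2 and Dnaja1, Hspa4 and Hspa12a lower, and the groups do not overlap in any of the 5.

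Within the 2024 batch alone, with 2 ZsGreen-positive and 4 ZsGreen-negative libraries, the log2 fold change was 0.83 for Bag3 (edgeR adjusted p 0.049), -0.40 for Dnaja1 (0.041) and -1.42 for Hspa12a (0.020). It was 1.69 for Hspb1 (0.18) and -0.32 for Hspa4 (0.10) there, past no threshold. The 2025 batch has 1 library of each group and allows no test.

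Lung structural cell markers tended to higher levels in ZsGreen-positive libraries, with overlap. Their summed level was 1037 to 2627 CPM in ZsGreen-positive and 412.6 to 1162 CPM in ZsGreen-negative libraries, and none of the 15 was at 0 throughout the lung libraries. Of 14 tested, 2 were called higher, against 2.35% of all genes. The median log2 fold change was 1.36, against -0.00058 over all genes. All 14 fold changes were positive, and 8 had an unadjusted edgeR p under 0.05. The sum of 9 macrophage and neutrophil markers was 113 to 232 CPM in ZsGreen-positive and 53.9 to 144 CPM in ZsGreen-negative libraries. With the structural marker score of each library as a term in the fit, none of the members was called. The log2 fold change was then 0.81 for Bag3 (edgeR adjusted p 0.46), 0.81 for Hspb1 (0.95), -0.35 for Dnaja1 (0.50), -0.29 for Hspa4 (0.65) and -1.58 for Hspa12a (0.10). In that fit 14 genes of 13771 were called higher and 34 lower.

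The inducible genes Hspa1a and Hspa1b varied within the lung groups. The 2025 libraries were low, with 18.7 CPM of Hspa1a in ZsGreen-positive library 3 and 17.3 CPM in ZsGreen-negative library 5. In the 2024 batch the ZsGreen-positive libraries had 39.0 and 46.0 CPM, and the ZsGreen-negative libraries 20.6 to 36.7 CPM. The log2 fold change of Hspa1a was 0.43 ± 0.18 (SE, edgeR adjusted p 0.24) and that of Hspa1b 0.27 ± 0.20 (0.62). Of 15 immediate early genes, 1 was higher in ZsGreen-positive ILC2 and 3 lower. That is 26.7% called, against 4.52% of all genes (2.35% higher and 2.18% lower). The part of these genes in the chaperone levels was not tested. Of 8 ER and 8 mitochondrial chaperones none was called in either direction, with median log2 fold changes of 0.03 and -0.03 over those lists. No heat shock factor, co-chaperone, TRiC, prefoldin, other ER or other mitochondrial folding gene, and no regulator of the unfolded protein response, was called either. With 4.52% of all genes called, few calls would be found in lists of this size at the background share.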

How the data were processed

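Bulk RNA sequencing gave whole-number counts per gene for 11 libraries, in 2 tables the authors deposited, whose lung columns were identical (0 differing). Per the labels' protocols, RNA came from a PicoPure kit and libraries from the mRNA kit of Watchmaker Genomics. The GRCm39 build and DESeq2 are named in the submitters' processing notes. Not given in the sources used here are the aligner, the counter, the annotation and any use of strand, so genes overlapping on opposite strands may share counts.

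Groups came from the labels. Counts were tested with the quasi-likelihood test of edgeR 4.0.16 (R 4.3.3; TMM, robust, filterByExpr at minimum count 10); p-values were Benjamini-Hochberg adjusted over all genes tested, with 0.05 as threshold. ZsGreen groups were compared over the 8 lung libraries with a batch term; DN3 were compared in a fit of all 11 libraries with no batch term, and all lung weighted both lung groups by library number. SE is the fold change over the root of the test's F. Levels are TMM-scaled CPM over all 11 libraries. DESeq2 1.42.0 and limma 3.58.1 (voom) were alternatives, with other scaling, no filter, omitted libraries, a replicate block and a structural marker score, the mean log2(CPM + 1) of the structural list.

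The members and lists were chosen with earlier results of these data known. Named genes were a set of class representatives, every member called in the lung, the 8 called members of largest fold change per direction in DN3 against all lung reaching 5 CPM or more on the higher side, and the 3 of smallest p per partner list; pseudogenes and related sequences were counted and not named. Other members named were chosen after their values were seen. Promoters came from RefSeq (GRCm38.p6), another build than that of the counts, and transcript lengths and shared stretches from GENCODE M21, matched by gene ID for all 93 members, of which 78 have a coding transcript.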

Additional observations from a re-analysis of the deposited data

Results flagged for a closer look

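In 2 of 48 named genes, 27 of them members, 1 ZsGreen-negative library stood apart from the other 4 by Dixon's criterion, which chance meets in about 1 in 20 groups. Hsph1 was lowest in ZsGreen-negative library 3, at 60.5 CPM against 66.6 to 68.5 CPM in the others. Ppp1r15a was highest in ZsGreen-negative library 5, of the 2025 batch, at 2111 CPM against 1483 to 1622 CPM.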

How the results depend on the processing

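Between the lung groups, the count of members higher in ZsGreen-positive ILC2 (2) became 1 with DESeq2, with upper-quartile scaling and in the 2024 batch alone, and 0 with the structural score as a term; leaving out single libraries gave 1 to 2. The count lower (3) became 5 without a filter on low counts and 0 with the structural score, and 2 to 5 when single libraries were left out, the 5 without ZsGreen-negative library 2. Hspb1 lost its call with DESeq2 (adjusted p 0.053) and upper-quartile scaling (0.051), and Hspa1a was called only without a filter (0.039). Ppp1r15a passed only with DESeq2 (log2 fold change -0.23, adjusted p 0.045).

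In the DN3 comparisons, leaving out single libraries gave 23 to 23 members higher and 27 to 32 lower against all lung, 22 to 24 and 25 to 27 against ZsGreen-positive, and 22 to 23 and 28 to 32 against ZsGreen-negative ILC2; the other settings kept these counts within 1.5 times. With upper-quartile scaling the all-gene median shifted by 0.10 against all lung, and Hspa4 lost its call (log2 fold change -0.17, adjusted p 0.056). No named gene called in any setting changed direction.

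Replicate numbers showed no clear pairing: same-numbered libraries correlated at -0.18 to 0.065 between the lung groups, and at -0.034 to 0.074 between DN3 and lung. Between DN3 and ZsGreen-negative libraries the same number was the best match each time, at correlations of 0.0098 to 0.074. In the other pairs of groups it never was. A replicate block in place of batch, over libraries 1 to 3 of each lung group, gave 1 member higher and 1 lower, with adjusted p 0.10 for Dnaja1, 0.19 for Hspa4 and 0.16 for Hspb1. At these depths members under a few CPM, such as Hspb1, rest on few counts.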
